A study of Mus musculus with 12 samples.

Results

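The 10 genes P2ry12, P2ry13, Tmem119, Sall1, Siglech, Gpr34, Cx3cr1, Olfml3, Sparc and Fcrls, which are widely used to tell microglia from other macrophages, were followed through RNA-seq libraries of mouse brain perivascular macrophages. They were taken by symbol from the deposited gene table, and all 10 were found among its 17358 genes. Mrc1, the mannose receptor CD206 and a classical marker of perivascular macrophages, was measured beside them. The study compared cells from brains of aged C57BL mice at 18 months (5 libraries) with cells from young adults at 3 months (7 libraries). The labels name no transgene or treatment. They do not say how the cells were sorted, which sex the mice were, how many cells a library holds or which libraries were handled together. The series text calls the libraries biological replicates without naming the animals, and p-values below refer to the spread from library to library.

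Microglia are the macrophages of the brain parenchyma, and perivascular macrophages lie between the vessel wall and the brain tissue. Both arise from related precursors and share many macrophage genes. The genes followed here are known for high expression in parenchymal microglia of the healthy brain. Their expression there is maintained by TGF-beta signalling and by the transcription factor SALL1, and several of them fall when microglia are activated or cultured. Perivascular macrophages are instead usually recognised by Mrc1, Cd163, Lyve1 and Pf4.

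The libraries held between 23214816 and 30628789 estimated counts and between 10279 and 11589 genes above 0. The common biological coefficient of variation estimated by edgeR was 1.33. On the first principal component (15.5% of the variance) aged libraries 1, 3 and 4 were far from the remaining 9, at -76.1, -95.1 and -105 against 10.8 to 47.6. Fold changes of the 10 genes that rest on these 3 libraries, and the medians of the gene lists, are also given without them. All 16 perivascular and border macrophage markers examined passed the filter on low counts, so the labelled cell type's markers were present. Their highest levels were those of Pf4 (median 9125 FPKM), Ms4a7 (2488) and Cbr2 (1730), where FPKM is a level scaled by library total and transcript length. Cd163 and Lyve1, singled out after their values were seen, had medians of 80.6 and 139 FPKM.

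On GRCm38, P2ry12 (chromosome 3, 59216271 to 59262985) and P2ry13 (59207892 to 59210882) are neighbours separated by 5388 bases. Both lie inside the bounds of Med12l, which did not exceed 1.91 FPKM in any library. Gpr34 (chromosome X, 13622650 to 13640859) lies inside the bounds of Cask, which stayed at or below 9.53 FPKM. The library chemistry does not mark the strand, so reads of overlapping genes cannot be told apart by strand. Fcrls (87250736 to 87263765) and Olfml3 (103735394 to 103738001) are further genes of chromosome 3. Tmem119 is on chromosome 5 (113793729 to 113800396), Siglech on chromosome 7 (55768154 to 55779448), Sall1 on chromosome 8 (89027242 to 89044162), Cx3cr1 on chromosome 9 (120048683 to 120068296) and Sparc on chromosome 11 (55394159 to 55420080). Mrc1 is on chromosome 2 (14229414 to 14332023). In the RefSeq table the predicted genes Gm3134, Gm39015 and Gm33858 overlap Sall1, Siglech and Cx3cr1, and the miRNA gene Mir511 overlaps Mrc1.

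PU.1, an ETS-family factor that macrophages need, binds purine-rich sites around the letters AGGAAG. This hexamer (CTTCCT on the other strand) was searched in the 250 bases before each start in the RefSeq promoter table for GRCm38.p6, which had an entry for 8 of the 10 genes. It was present for 5 of them (P2ry12, P2ry13, Olfml3, Fcrls and, in 1 of its 3 promoters, Sall1) and for Mrc1. At least 1 promoter held it for 32.3% of the genes in RefSeq's table, and 29.5% of the 32851 promoters held it. The entries of Siglech, Cx3cr1 and Sparc did not hold these letters in that window. Windows of 60 bases from the neighbours P2ry12 and P2ry13, from Fcrls and from Mrc1 are shown 5′ to 3′ on the gene's strand with the hexamer in capitals. Fcrls and Mrc1 each held the hexamer at several places, of which 1 is shown. The table's start of Fcrls lies inside the outer bounds of the gene given above. A match describes the sequence and was not measured as binding.
P2ry12 (chr3:59263005-59263064, minus strand, hexamer 52 bases before the start): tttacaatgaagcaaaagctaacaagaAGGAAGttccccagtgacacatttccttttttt
P2ry13 (chr3:59210897-59210956, minus strand, hexamer 47 bases before the start): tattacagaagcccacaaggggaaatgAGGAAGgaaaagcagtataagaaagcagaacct
Fcrls (chr3:87263635-87263694, minus strand, hexamer 143 bases before the start): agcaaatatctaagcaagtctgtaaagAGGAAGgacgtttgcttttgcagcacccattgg
Mrc1 (chr2:14229351-14229410, plus strand, hexamer 36 bases before the start): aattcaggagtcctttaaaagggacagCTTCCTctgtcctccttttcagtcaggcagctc

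Levels were compared between genes on the FPKM scale, which is per transcript length. The 10 genes did not form a single level. By their medians Gpr34, Fcrls and P2ry12 were as abundant as Mrc1 or close to it, with wide ranges between libraries. Siglech, P2ry13 and Cx3cr1 were clearly detected below it. Olfml3 was lower and ranged from 0.05 FPKM (2 counts, in aged library 4) to 104 FPKM. Sparc, Tmem119 and Sall1 were far lower by median. By median over the 12 libraries the order was Gpr34 580, Fcrls 501, Mrc1 413, P2ry12 376, Siglech 227, P2ry13 103, Cx3cr1 99.7, Olfml3 53.4, Sparc 11.9, Tmem119 3.20 and Sall1 0.12 FPKM. The median of Gpr34 exceeded that of 98.0% of the 9550 genes that passed the filter on low counts, and that of Sall1 exceeded 7.77% of them. In bulk libraries fewer cells of a type and less RNA per cell cannot be told apart.

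**Figure D1:**
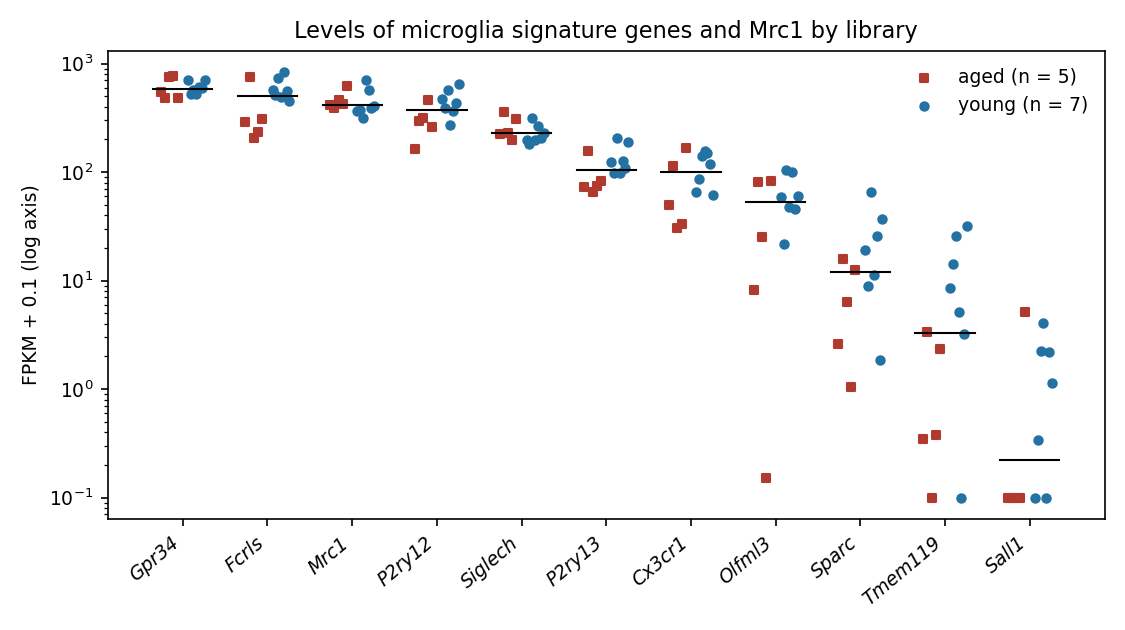
FPKM of each gene and of Mrc1 in each library, plotted as FPKM + 0.1 on a log axis, with aged libraries as red squares, young libraries as blue circles and the median of all 12 as a line. Gpr34, Fcrls, Mrc1 and P2ry12 overlap near the top, and Tmem119 and Sall1 reach 0 in some libraries.

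The difference from Mrc1 was taken within each library as the log2 ratio of the FPKM values (each + 0.1) and tested by an exact two-sided sign-flip permutation over the 12 libraries. P-values were adjusted over the 10 comparisons, and 0.000698 was the smallest adjusted value reached, from the smallest p that 12 libraries allow (0.000488). Of the 10 genes, 8 differed from Mrc1, and the other two, Fcrls and P2ry12, did not pass. Gpr34 was the only one of the 8 that was higher, with a mean log2 ratio of 0.44 ± 0.47 (SD, n = 12, adjusted exact permutation p = 0.0159). It was below Mrc1 in 2 of 12 libraries, and its range was 73.4% to 195% of Mrc1. Without aged libraries 1, 3 and 4 the mean ratio was 0.37 and the call was lost (adjusted exact permutation p = 0.0928). Fcrls had a mean log2 ratio of 0.04 ± 0.81 (adjusted exact permutation p = 0.881) and was below Mrc1 in 5 of 12 libraries. Its range was 44.3% to 234% of Mrc1. P2ry12 had a mean log2 ratio of -0.28 ± 0.78 (adjusted exact permutation p = 0.264) and was below Mrc1 in 6 of 12. The range of P2ry12 was 38.8% to 181% of Mrc1. Its mean log2 ratio was -0.69 in aged and 0.01 in young libraries (adjusted exact permutation p for age = 0.204).

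Another 7 genes were below Mrc1 in 12 of 12 libraries, each at the smallest adjusted p. Siglech came closest, at a median of 51.5% of Mrc1 (28.0% to 99.9%) and a mean log2 ratio of -0.89 ± 0.47. P2ry13 had a median of 24.3% of Mrc1 and Cx3cr1 of 22.6%. Olfml3 had a median of 12.4%, Sparc of 2.18%, Tmem119 of 0.759% and Sall1 of 0.0323%.

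**Figure D2:**
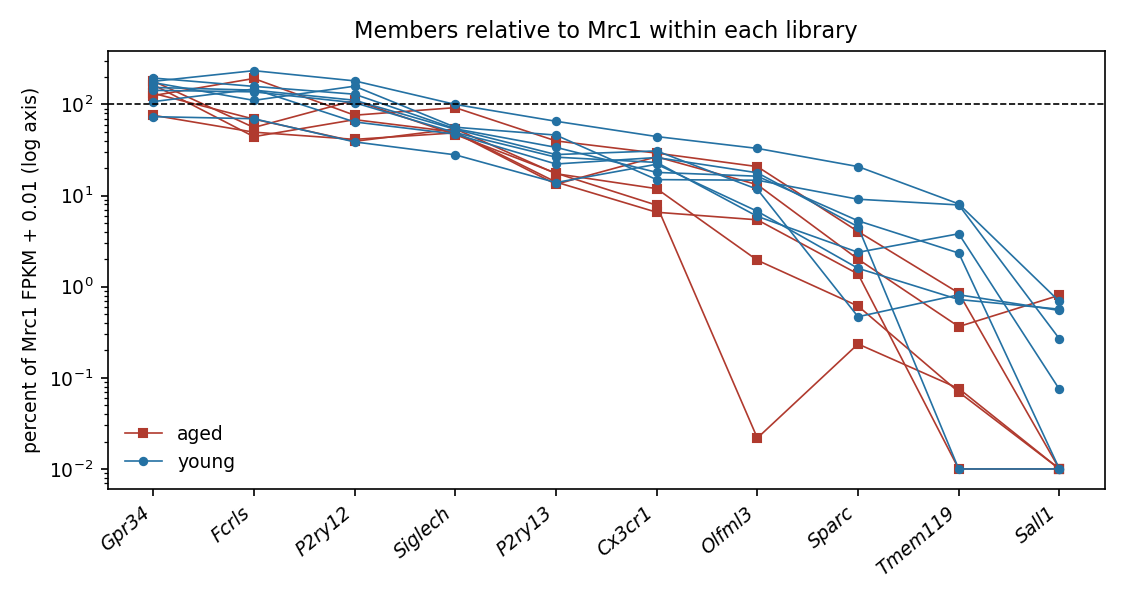
Each gene as a percentage of Mrc1 FPKM in the same library (plus 0.01, log axis), with 1 line per library, red for aged and blue for young, and a dashed line at the level of Mrc1. Gpr34, Fcrls and P2ry12 lie on both sides of the dashed line, and the lines descend from Siglech to Sall1 in nearly the same order in most libraries.

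Of the 10 neighbouring pairs in the order, which these same values set, 6 differed beyond their spread within libraries (exact two-sided sign-flip permutation, adjusted over the 10 pairs). Siglech exceeded P2ry13 and Cx3cr1 exceeded Olfml3 in 12 of 12 libraries (adjusted p = 0.00244 each). P2ry12 exceeded Siglech in 9 of 12 libraries (adjusted p = 0.0212), Olfml3 exceeded Sparc in 11 (0.0212), Sparc exceeded Tmem119 in 10 (0.0195) and Tmem119 exceeded Sall1 in 9 (0.0212). The pairs Gpr34 and Fcrls (adjusted p = 0.157), Fcrls and Mrc1 (0.881), Mrc1 and P2ry12 (0.264) and P2ry13 and Cx3cr1 (0.157) did not pass. Without aged libraries 1, 3 and 4, 3 of the 10 pairs passed, and the steps from P2ry12 to Siglech (adjusted exact permutation p = 0.0586), from Sparc to Tmem119 (0.0781) and from Tmem119 to Sall1 (0.0781) no longer did. The mean log2 differences of these 3 steps were then 0.68, 1.68 and 2.78, against 0.62, 2.12 and 2.39 over all 12 libraries. The smallest exact permutation p reached over the 9 libraries was 0.00391. Ranked within each library, Gpr34 was first in 9 of 12, Olfml3 was seventh in 11 and Sparc was eighth in 9.

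Aged and young libraries were then compared in 1 edgeR quasi-likelihood fit over all 9550 genes that passed the filter, in which 0.0105% of genes (1 of 9550) passed an adjusted p of 0.05. None of the 10 genes did. None was called by DESeq2 either, which called 1.27% of all genes, nor by limma with voom (0.0209%) or edgeR with legacy=FALSE (0.398%). At an unadjusted p under 0.05 the edgeR fit held 2 of the 10, Siglech higher and Fcrls lower. Of all genes tested, 2.12% were lower and 3.85% higher at an unadjusted p under 0.05. The log2 fold changes of 8 of the 10 genes were negative, with a median of -0.47, against 50.5% negative and a median of -0.01 over all genes tested. The values of the age groups overlapped for each of the 10 genes, and the groups did not overlap for 0.597% of all genes tested. Without aged libraries 1, 3 and 4, 6 of 10 were negative with a median of -0.15, against 54.4% negative and a median of -0.09 over all genes then tested. Mrc1 itself was at 418, 390, 462, 422 and 628 FPKM in aged libraries 1 to 5 and between 317 and 708 FPKM (median 386) in the 7 young libraries, with aged values inside the young range. It had a log2 fold change of 0.21 ± 0.18 (SE, adjusted p = 0.999 by edgeR).

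**Figure D3:**
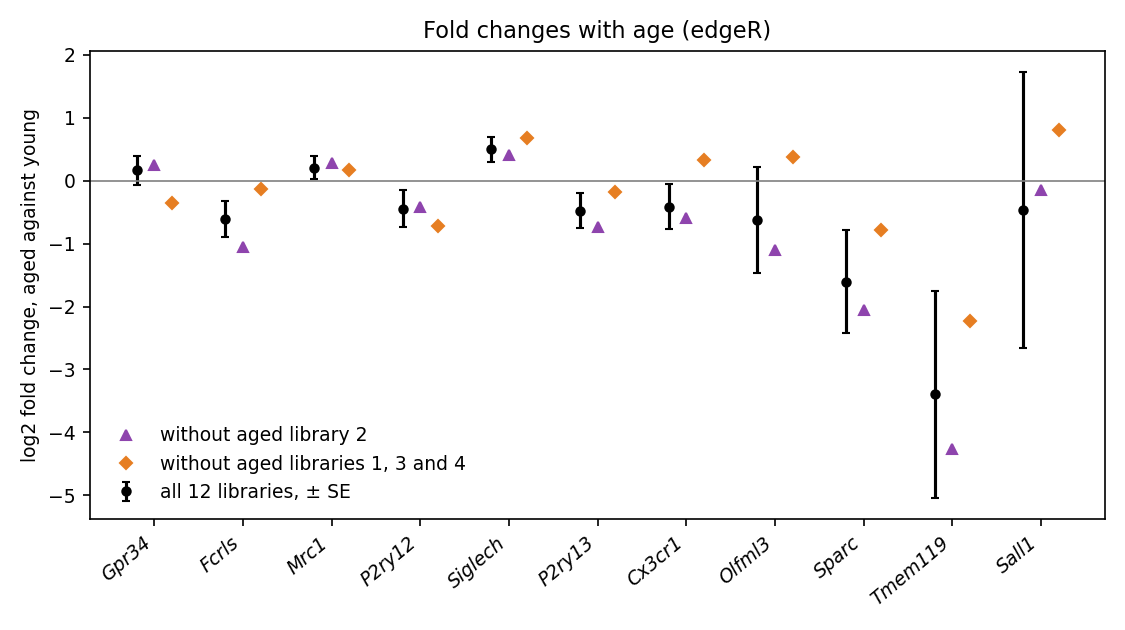
Log2 fold change of aged against young libraries for each gene and Mrc1 by edgeR, as points with SE over all 12 libraries, beside the value without aged library 2 (triangles) and without aged libraries 1, 3 and 4 (diamonds). Gpr34, Cx3cr1, Olfml3 and Sall1 change sign without aged libraries 1, 3 and 4.

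Among the nucleotide-sensing and related receptors, P2ry12 encodes the ADP receptor through which microglial processes move towards injury. It was at 164, 297, 314, 467 and 260 FPKM in aged libraries 1 to 5 and at 471, 387, 574, 275, 365, 429 and 645 FPKM in young libraries 1 to 7. The lowest value was that of aged library 1, the highest that of young library 7, and the groups overlapped. Its log2 fold change was -0.44 ± 0.29 (SE, adjusted p = 0.999 by edgeR), and -0.72 without aged libraries 1, 3 and 4.

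P2ry13 encodes a second ADP receptor. Its levels were 72.5, 155, 64.9, 74.3 and 83.5 FPKM in aged and 123, 97.7, 207, 98.2, 126, 109 and 188 FPKM in young libraries. On FPKM all aged libraries except library 2 lay below all 7 young ones. On normalised CPM, which is TMM-scaled, aged library 4 (214) was also above young library 4 (195). The log2 fold change was -0.47 ± 0.28 (SE, adjusted p = 0.999 by edgeR), and -0.17 without aged libraries 1, 3 and 4.

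Gpr34 encodes a receptor for lysophosphatidylserine that is related to the P2Y receptors. On FPKM it was the steadiest of the 10, with a coefficient of variation of 17.0% over the 12 libraries against 26.2% for Mrc1. On normalised CPM it was steadier than neither Siglech nor Mrc1. Levels there were 1164 ± 313 for Gpr34, 473 ± 120 for Siglech and 2374 ± 426 for Mrc1 (SD, n = 12). Gpr34 was at 553, 487, 760, 762 and 478 FPKM in aged and at 709, 529, 567, 519, 609, 593 and 708 FPKM in young libraries. On FPKM aged libraries 3 and 4 were above all young libraries, and aged libraries 2 and 5 were below all of them. On normalised CPM aged libraries 2 (938) and 5 (793) were above young library 4 (781). The log2 fold change was 0.17 ± 0.23 (SE, adjusted p = 0.999 by edgeR), -0.36 without aged libraries 1, 3 and 4, and -0.01 on the FPKM scale.

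Cx3cr1, the receptor for the neuronal chemokine fractalkine, is expressed by microglia and by other mononuclear phagocytes. Its levels were 49.7, 114, 30.2, 33.0 and 167 FPKM in aged and 65.3, 85.6, 141, 156, 148, 119 and 60.9 FPKM in young libraries. Aged libraries 1, 3 and 4 were below all young ones, whereas aged library 5 had the highest value of the 12. The log2 fold change of -0.41 ± 0.35 (SE, adjusted p = 0.999 by edgeR) was 0.33 without those 3 libraries.

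Fcrls encodes an Fc receptor-like molecule with a scavenger receptor domain. It was at 288, 751, 204, 235 and 311 FPKM in aged libraries and at 574, 509, 743, 493, 837, 554 and 451 FPKM in young libraries. All aged libraries except library 2 were below all young ones. On FPKM aged library 2 was above all young libraries but library 5. On normalised CPM aged library 2 (1525) was above young library 5 (1428) as well. The log2 fold change was -0.61 ± 0.29 (SE), with an unadjusted p of 0.0469 and an adjusted p of 0.821 by edgeR. Without aged library 2 it was -1.05 and passed (adjusted p = 0.0270 by edgeR), in a fit in which 0.141% of genes were called lower. Without aged libraries 1, 3 and 4 it was -0.12.

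**Figure D4:**
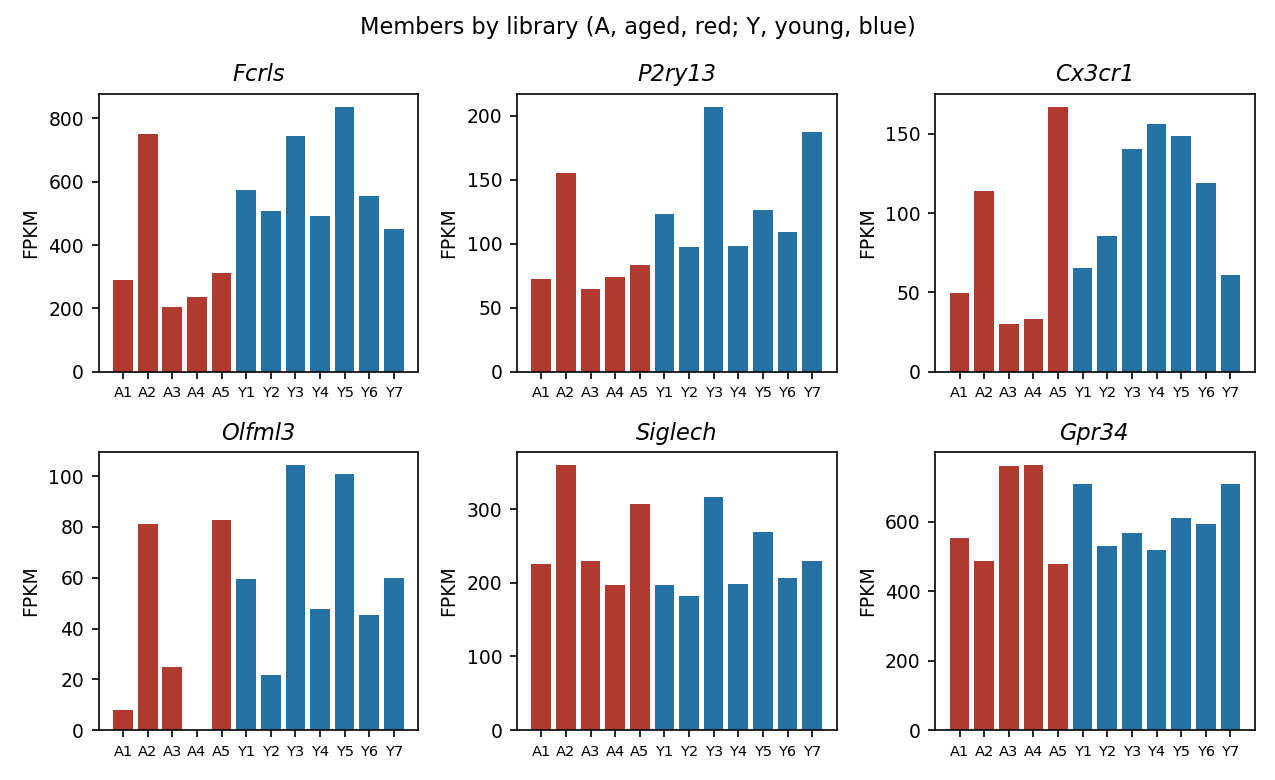
FPKM in each library (A1 to A5, aged, red; Y1 to Y7, young, blue) for 6 of the genes, with bars from 0 and 1 axis scale per gene. On this FPKM scale Fcrls and P2ry13 are below every young library in all aged libraries but A2. Cx3cr1 is below every young library in A1, A3 and A4, and Gpr34 shows no such separation.

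Siglech encodes a sialic acid-binding lectin of microglia that is also a marker of plasmacytoid dendritic cells. It was at 225, 359, 229, 197 and 306 FPKM in aged and at 197, 182, 317, 198, 268, 206 and 229 FPKM in young libraries. The groups overlapped, and aged library 2 had the highest value. On counts it had a log2 fold change of 0.50 ± 0.20 (SE), an unadjusted p of 0.0205 and an adjusted p of 0.602 by edgeR. The transcript length that the deposited counts and FPKM imply for Siglech varied from 1549 to 2161 bases between libraries, a 1.4-fold range. For the other 9 genes and Mrc1 that range was at most 1.04-fold. The implied length was 2081 ± 90.2 bases in aged and 1835 ± 208 in young libraries (SD, n = 5 and n = 7, exact two-sided permutation p = 0.0379), a comparison chosen after the values were seen. It no longer passed on leaving out any 1 of aged libraries 1, 3, 4 and 5 or young libraries 3, 5, 6 and 7, with exact permutation p from 0.0606 to 0.0848, nor without aged libraries 1, 3 and 4 (exact permutation p = 0.333). With the length as an offset the log2 fold change of Siglech was 0.33, and on the FPKM scale it was 0.20. The 4 dendritic cell markers other than Siglech were Flt3, Zbtb46, Xcr1 and Clec9a. They summed to between 1.36 and 10.2 FPKM in aged and between 0.04 and 8.51 FPKM in young libraries. The part of plasmacytoid dendritic cells in the level of Siglech was not tested.

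Sall1 encodes the zinc-finger transcription factor that marks parenchymal microglia among brain macrophages. It was at 0, 0, 0, 0 and 5.00 FPKM in aged and at 0, 0.24, 2.15, 3.94, 0, 2.08 and 1.05 FPKM in young libraries. Its 685 aged counts all came from aged library 5, and a count of 0 allows up to 3 counts, which was 0.098 to 0.129 CPM, counts scaled to the library total. The log2 fold change of -0.47 ± 2.2 (SE, adjusted p = 0.999 by edgeR) became 0.81 without aged libraries 1, 3 and 4. Without aged library 5 every aged library was at 0 counts, and the fitted value, -10.47, then depends on the prior count and is no bound. The value was -7.69 with the replicate number as a block, -3.83 with voom and -0.06 without young library 4. A difference was not detectable at this spread.

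Tmem119 encodes a microglial membrane protein of unsettled function. Its levels were 0.25, 3.29, 0, 0.28 and 2.23 FPKM in aged and 8.48, 14.1, 25.6, 5.05, 0, 3.11 and 32.1 FPKM in young libraries. Young libraries 5 and 6 lay at or below the highest aged value, and the other 5 young libraries lay above it. The log2 fold change was -3.40 ± 1.64 (SE), with an unadjusted p of 0.0540 and an adjusted p of 0.847 by edgeR. It stayed between -4.27 and -2.98 on leaving out each library in turn and was -2.23 without aged libraries 1, 3 and 4.

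The secreted proteins were Olfml3, an olfactomedin-like matrix protein, and Sparc, a collagen-binding matricellular protein. Olfml3 was at 8.11, 81.0, 25.0, 0.05 and 82.6 FPKM in aged and at 59.3, 21.9, 104, 47.5, 101, 45.2 and 60.0 FPKM in young libraries. Aged libraries 1 and 4 were below all young ones, and the log2 fold change of -0.62 ± 0.84 (SE, adjusted p = 0.999 by edgeR) was 0.38 without aged libraries 1, 3 and 4. Leaving out single libraries moved it from -1.10 (without aged library 2) to -0.31 (without aged library 4, which held 2 counts), and it was -1.79 with the replicate number as a block. Sparc was at 2.52, 15.7, 6.31, 0.95 and 12.5 FPKM in aged and at 19.2, 8.80, 65.9, 11.2, 25.8, 1.77 and 37.1 FPKM in young libraries. Sparc had a log2 fold change of -1.61 ± 0.82 (SE), an unadjusted p of 0.0665 and an adjusted p of 0.911 by edgeR. Without aged libraries 1, 3 and 4 it was -0.79. Aged libraries 1, 3 and 4 held 3 of the 4 lowest values and young library 6 the other, and the groups overlapped. Sparc is also made by endothelial cells, astrocytes and fibroblasts. None of the 9 endothelial markers in the table passed the filter on low counts, all 9 had medians under 1 FPKM, and their sum was at most 10.3 FPKM in any library. Cldn5 did not exceed 0.98 and Flt1 did not exceed 0.01 FPKM. The 5 astrocyte markers summed to 0.33 to 20.0 FPKM in aged and 0.39 to 17.6 in young libraries, and the 6 fibroblast markers to 0.18 to 101 and 0.01 to 47.1. The part of these cells in the level of Sparc was not tested.

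The ratio to Mrc1 was also compared between the ages, by an exact two-sided permutation of the age labels. None of the 10 genes passed after adjustment over the 10 comparisons (adjusted p from 0.191 to 0.833). At an unadjusted exact permutation p under 0.05 there was Fcrls, whose mean log2 ratio to Mrc1 was -0.52 ± 0.85 in aged and 0.43 ± 0.53 in young libraries (SD, n = 5 and n = 7, exact permutation p = 0.0417, adjusted 0.191). Without aged library 2 the difference was -1.33 and passed (adjusted exact permutation p = 0.0303). The largest difference was that of Tmem119, at -3.22 (exact permutation p = 0.0707, adjusted 0.191).

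How the genes moved together across libraries was measured by pair. Over all 12 libraries 3 of 55 pairs (45 pairs among the genes and 10 with Mrc1) had a correlation of log2(CPM + 1) values that passed adjustment over the 55. By Pearson's r these were Gpr34 with Cx3cr1 (r = -0.88), Olfml3 with Sparc (r = 0.75) and P2ry13 with Mrc1 (r = -0.83). By Spearman's rho the first 2 of them passed (P2ry13 with Mrc1 had an adjusted permutation p of 0.0938). Because aged libraries 1, 3 and 4 stood apart, coefficients are also given over the other 9. None of the 55 pairs passed there or within the 7 young libraries, where fewer libraries enter each test. Gpr34 and Cx3cr1 had a negative coefficient over the 9 (Pearson's r = -0.83, permutation p = 0.00523, adjusted 0.121; Spearman's rho = -0.70, permutation p = 0.0426). So had P2ry13 and Mrc1 (r = -0.83, permutation p = 0.00660, adjusted 0.121; rho = -0.57, permutation p = 0.120). Olfml3 and Sparc had r = 0.58 (permutation p = 0.103, adjusted 0.332; rho = 0.72, permutation p = 0.0358). The neighbours P2ry12 and P2ry13 had r = 0.81 (permutation p = 0.0123, adjusted 0.136; rho = 0.75, permutation p = 0.0264). The pair with the smallest p in these 9 libraries was P2ry12 and Gpr34 (r = 0.87, permutation p = 0.00187, adjusted 0.103; rho = 0.87, permutation p = 0.00486).

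For each gene the nearest patterns among 6693 genes of at least 10 CPM were taken by Pearson's r over the 12 libraries, and the coefficients over the 9 libraries without aged libraries 1, 3 and 4 are given as a description. P2ry13 was nearest to Uqcrc1, a subunit of respiratory complex III (r = 0.94, rho = 0.97). P2ry12 was nearest to Pla2g7 (r = 0.87) and Arpc2 (r = 0.89), and Gpr34 to Mrps21 (r = 0.94) and Cstb (r = 0.87). Cx3cr1 was nearest to Mxra7 (r = 0.91) and Slfn8 (r = 0.76), and Siglech to Itgb2 (r = 0.90) and Batf (r = 0.87). Fcrls was nearest to Scamp4 (r = 0.90) and to Apoe, the apolipoprotein E gene (r = 0.88, rho = 0.65). Tmem119 was nearest to Gtf2f1 (r = 0.87) and Nfkbia (r = 0.74), Sall1 to Cnot4 (r = 0.86) and Adss (r = 0.85), and Sparc to Chp1 (r = 0.83) and Lrp10 (r = 0.82). For Olfml3 the patterns chosen over 12 libraries, Rbm17 and Diablo, had r of 0.59 and 0.55 over the 9 (rho of 0.30 and 0.53).

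Of 23 further microglia-enriched genes, 21 passed the filter. None was called, 17 had negative log2 fold changes, and their median was -0.40. Without aged libraries 1, 3 and 4, 15 were negative and the median was -0.19. Among the highest were Ltc4s, a leukotriene C4 synthase, at 1009 ± 384 FPKM in aged and 975 ± 333 in young libraries (SD, n = 5 and n = 7), and Rgs10, a regulator of G-protein signalling, at 558 ± 130 against 754 ± 102. Ltc4s had a log2 fold change of 0.23, and -0.35 without those 3 libraries. Ecscr was the 1 gene of this list without overlap between the ages, against 0.597% of all genes tested. It was at 0 counts in aged libraries 1 to 4 and had 102 counts in aged library 5 and 3263 over the 7 young libraries. Its levels were 0.683 ± 1.53 normalised CPM at 18 months against 16 ± 6.9 at 3 months (log2 fold change -4.54 ± 1.94 (SE), adjusted p = 0.711 by edgeR). Ecscr is also known from endothelial cells. The 9 endothelial markers summed to 0.01 to 10.3 FPKM in aged and 0.02 to 6.89 FPKM in young libraries, and their part in the values of Ecscr was not tested.

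Of 16 genes shared by microglia and other macrophages, 10 were negative and the median log2 fold change was -0.12, with no call. The count was 8 and the median 0.00079 without aged libraries 1, 3 and 4. The highest was Cst3, cystatin C, at 20777 ± 4950 FPKM at 18 months and 32492 ± 5600 at 3 months (adjusted p = 0.660 by edgeR). Fcer1g and Tyrobp, signalling adaptors of immune receptors, had log2 fold changes of -0.07 and -0.32, and of -0.24 and -0.15 without those libraries. The 16 perivascular and border macrophage markers had a median log2 fold change of 0.15, with 11 positive, 5 negative and no call, and of 0.14 without those libraries.

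Signals that maintain microglial identity were represented by 14 genes, of which 13 were in the table and 9 passed the filter. Of the 9, 6 were positive, the median was 0.32, and none was called, with a median of 0.38 without aged libraries 1, 3 and 4. The highest were Nrros, whose protein presents latent TGF-beta on microglia (109 ± 67.3 FPKM in aged and 125 ± 49.2 in young libraries), the protease Adam10 (130 ± 50.1 against 82.9 ± 30.7) and the TGF-beta receptor Tgfbr2 (61.5 ± 12.2 against 55.0 ± 19.8). Their log2 fold changes were -0.07, 0.82 and 0.33, and without aged libraries 1, 3 and 4 they were 0.54, -0.02 and 0.22. Among other nucleotide receptors and ectonucleotidases 5 of 11 passed the filter, 4 of them negative, with no call and a median of -0.25 (-0.12 without those libraries). P2ry6, a UDP receptor, was at 83.0 ± 36.2 FPKM at 18 months and 160 ± 65.4 at 3 months (adjusted p = 0.670 by edgeR). P2rx7 and P2rx4, ATP-gated channels, had log2 fold changes of -0.05 and -0.25, which were 0.44 and 0.04 without those libraries. Of 20 relatives of Fcrls, Siglech, Sall1, Sparc and Olfml3, 6 passed, 3 in each direction and none called, with a median of 0.04 (-0.13 without those libraries). Cd33 was the highest at 49.9 ± 23.1 FPKM in aged and 89.5 ± 33.0 in young libraries. Siglece and Siglec1 followed, with log2 fold changes of -0.66 and 1.81 (-0.26 and 1.92 without those libraries).

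Genes of the disease-associated state of microglia, in which several of the 10 genes are known to fall, were examined as a further list, and none was called. Of 15, 13 passed the filter, 10 were negative, and the median was -0.92 over all 12 libraries and -0.34 without aged libraries 1, 3 and 4. Apoe, Ctsb and Cd63 were the highest, with log2 fold changes of -0.62, -0.38 and -0.12, and of -0.14, 0.08 and 0.00083 without those 3 libraries.

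Among the markers of other cell types 1 gene was called. The 5 choroid plexus and ependymal markers summed to 179 to 809 FPKM in aged and 47.9 to 131 FPKM in young libraries, led by Ttr, the 1 gene called in the series (log2 fold change 2.68 ± 0.39 (SE), adjusted p = 0.0297 by edgeR). That call was lost, with 0 genes called, on leaving out any 1 of aged libraries 1 and 4 and young libraries 2, 3, 4, 5 and 7, and without aged libraries 1, 3 and 4, where the log2 fold change of Ttr was 2.56. Of the 6 oligodendrocyte markers, Mobp was the 1 gene without overlap, against 0.597% of all genes tested. It was at 0.0420 ± 0.0446 normalised CPM at 18 months and 15.3 ± 13 at 3 months (adjusted p = 0.177 by edgeR). The other lists gave no call and no gene without overlap. Per library, mural markers summed to at most 7.84 FPKM, neuronal markers to at most 34.1, monocyte markers to at most 42.2, neutrophil markers to at most 66.8, T and NK cell markers to at most 48.5 and B cell markers to at most 78.1 FPKM. The part of any of these cells in the values of the 10 genes was not tested.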

How the data were processed

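SMART-seq2 cDNA, primed with oligo-dT and amplified, was made into Nextera XT libraries and sequenced as DNA nanoballs, per the labels' protocols. There are no molecular identifiers, so amplified copies count as separate reads, and intervals and floors cover counting error only. The authors deposited 1 table of 17358 genes with estimated counts. Per the submitters' processing notes, the tools were RSEM 1.2.12, HISAT2 2.0.4, DESeq2 1.4.5 and Bowtie2 2.2.5 with GRCm38 (mm10), without role or order. The gene annotation was not given in the sources used here. The deposited normalised values carry no named unit and were read as FPKM because they follow the counts over library total and a transcript length. Between 88.2% and 90.6% of a library's estimated counts were whole numbers, and all were rounded for the tests. Damaged or repeated symbols (23) were replaced through RefSeq identifiers, which matched 17244 genes and gave coordinates. Any 2 libraries differed by far more than sampling noise (chi-square over its degrees of freedom of at least 294).

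The age comparison used edgeR 4.0.16 in R 4.3.3: TMM factors, filterByExpr on group, robust quasi-likelihood test, Benjamini-Hochberg adjustment over 9550 genes and a threshold of 0.05. The test was checked on simulated counts. Changes were planted there only above the mean levels of Sparc, Tmem119 and Sall1, so the check does not cover such low levels. A positive log2 fold change means a higher level in aged libraries. SE come from the F statistic. Normalised CPM are TMM-scaled. Levels between genes used log2(FPKM + 0.1) within a library and exact sign-flip permutation, age differences in ratios exact permutation of the age labels, and correlations 100000 permutations (exact within 7 libraries). Alternatives were DESeq2 1.42.0, limma 3.58.1 (voom, and FPKM with a pseudocount of 1 or 0.1), edgeR with legacy=FALSE, no filter on low counts, a transcript length offset, a replicate block and left-out libraries. FPKM alternatives have no further scaling. Estimated counts can split reads between related genes, so Sall, Siglec and Fc receptor-like relatives are uncertain to that extent. The 10 genes and the 20 gene lists were chosen with earlier results of these data known. Named were all 10 genes and Mrc1, and from each other list the called genes, or up to 4 without overlap, and up to 3 of the highest mean FPKM, and the 2 nearest patterns of each gene. Where fewer are named in the text, the rest of a list is given by its counts. An item that this rule names is not reported here.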

Additional observations from a re-analysis of the deposited data

Results flagged for a closer look

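In 3 of 22 groups tested (10 genes and Mrc1 in each age group), 1 library lay far from the others, by a gap to its nearest neighbour that exceeded Dixon's 95% critical value as a share of the group's range. Chance flags about 1 in 20 such groups. All 3 were the highest aged library. P2ry13 was at 392 normalised CPM in aged library 2, against 214 in the next aged library (a gap of 0.852 of the range). Fcrls was at 1525 normalised CPM in the same library, against 620 in the next (0.868 of the range). Sall1 was at 22.9 normalised CPM in aged library 5 and at 0 in the other 4 aged libraries (1 of the range). With 4 libraries at 0 that share is 1 for any value above 0, so Sall1 is not to be read against the chance rate.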

How the results depend on the processing

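The count of genes called between the ages was 1 by edgeR, and it was 121 with DESeq2, 38 with legacy=FALSE, 13 with no filter, 6 on log2(FPKM + 1), 2 with voom, 0 on log2(FPKM + 0.1) and 0 without aged libraries 1, 3 and 4. Leaving out each library gave 0 to 75 genes, the 75 without aged library 2. The causes of these differences were not tested. Of the 10 genes 0 were called under each of these settings except without aged library 2 (leave-one-out range 0 to 1, Fcrls). For the age difference in the ratio to Mrc1 the count was 0, with a leave-one-out range of 0 to 1, again Fcrls without aged library 2. With the replicate number as a block 1 gene and 0 of the 10 were called. Same-numbered libraries did not deviate together (correlations from -0.0405 to 0.0938, none over 0.1), so the numbers were not taken as pairs. The count of genes that differed from Mrc1 stayed at 8 on leaving out each library. Neighbouring pairs that differed went from 6 to 3 without aged libraries 1, 3 and 4. Correlated pairs went from 3 to 0 without those 3 libraries, to 0 within the 7 young libraries and to 0 without the 2 libraries farthest from the median of each pair's first gene. With fewer libraries a difference or coefficient of the same size has a larger p-value. A call lost in this way is therefore not by itself a change in size.

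Directions that reversed, none of them past the threshold, were those of the log2 fold change without aged libraries 1, 3 and 4 for Sall1 (0.81), Gpr34 (-0.36), Cx3cr1 (0.33) and Olfml3 (0.38), of Gpr34 on FPKM with either pseudocount (-0.014 with 1 and -0.0144 with 0.1), and of the age difference in the ratio to Mrc1 without those libraries for Cx3cr1 (0.20) and Olfml3 (0.34). On leaving out each library the age difference in the ratio ranged from -0.070 to 0.26 for Siglech and from -0.26 to 0.091 for Gpr34, and the mean log2 ratio of Fcrls to Mrc1 from -0.073 to 0.15. Against the edgeR fit the median log2 fold change of all genes shifted by -0.24 on log2(FPKM + 0.1), -0.16 on log2(FPKM + 1), -0.15 with the block and -0.12 with voom, and the median of the 10 genes was then -0.80, -0.67, -0.76 and -0.60. Sall1 and Tmem119 had 0 counts in 6 and 2 libraries, each of which allows up to 3 counts at its depth.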
